A study of Mus musculus with 11 samples.

Results

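The 48 genes described here build and run the mitotic spindle, tie chromosomes to it and divide the cell in 2. They were chosen by name, with earlier results of these data known. The list holds mitotic kinases, checkpoint proteins, kinetochore subunits, kinesins and cytokinesis factors, and every one of them matched a gene of the 55359 in the deposited counts. All 48 also passed the filter on low counts, which retained 17050 genes. RNA was sequenced from retinal endothelial cells of C57BL/6 mice in the model of oxygen-induced retinopathy (OIR), in which pups breathe high oxygen and then room air, and abnormal vessels grow into the hypoxic retina. Oncostatin M (OSM), a cytokine of the interleukin-6 family, or phosphate-buffered saline (PBS) was injected into the vitreous at postnatal day 12, at 0.5 µL per eye and, for OSM, 100 ng/µL. CD31+ and CD45- cells were sorted at postnatal day 17, with both retinas of a mouse in 1 sample, and gave 5 OSM samples (mice 1, 2, 5, 6 and 9) and 6 PBS samples (mice 3, 4, 7, 8, 10 and 11). Litter 1 held mice 1 to 4, litter 2 mice 5 to 8 and litter 3 mice 9 to 11, so that litter 3 had 1 OSM mouse. The study's methods describe PBS injections into contralateral eyes and do not say whether both eyes of a sequenced mouse had the same agent, and the labels give 1 treatment per mouse. The comparison addresses which transcripts of the endothelial cells had changed after OSM by the day of sorting, when abnormal vessels are most extensive in this model.

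A cell enters mitosis when cyclin B and CDK1 become active. Kinesins and microtubule-binding proteins then shape the spindle, and the kinetochore, a protein plate on each centromere, catches its microtubules. The spindle assembly checkpoint holds the cell until every chromosome is attached, after which the anaphase-promoting complex destroys cyclin B and securin, separase cuts the ring that holds sister chromatids together, and the cleavage furrow closes. Most of these genes are transcribed mainly late in the cell cycle, so their mRNA is scarce in resting cells and more abundant in dividing ones. In bulk samples such as these, fewer dividing cells and less mRNA per dividing cell cannot be told apart.

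Between 26697990 and 56033479 reads were counted per mouse, most in OSM mouse 9. PBS mouse 3 had reads for 20898 genes, against 16635 to 17697 in the others. All 10 endothelial markers had reads in every mouse, and their summed level was 14334 to 18729 CPM in the OSM group and 13583 to 17648 in the PBS group. CPM stands for the reads of a gene scaled to a common library size, here normalized by the trimmed mean of M values (TMM). Leukocyte markers, the target of the CD45 gate, summed to at most 14.5 CPM and none of the 10 had reads in every mouse. Rod markers summed to 172 to 4849 CPM in the OSM group, highest in mouse 5, and 350 to 1349 in the PBS group, with 6 of 8 present in every mouse. Müller glia and astrocyte markers summed to 193 to 485 CPM, with 3 of 8 present in every mouse, and Glul alone was at 159 to 279 CPM. Inner retinal neuron markers summed to 6.70 to 108 CPM, with 1 of those 8 at 0 in all mice.

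Many genes of the kind listed here are known targets of the DREAM and MuvB complexes, which bind the cell cycle homology region (CHR, TTTGAA). Many are also targets of the factor NF-Y, which binds CCAAT. The start of the canonical GENCODE transcript of each gene was taken, and the window from 250 bases before it to 50 bases from it on was searched on both strands. The CHR letters were in 24 of 48 windows (50%), against 13.8% of the 13341 windows of tested protein-coding genes. The CCAAT letters were in 30 windows (62.5%, against 39.5%), and 18 windows held both (37.5%, against 5.82%). A match is a description of the letters and not proof of binding. The promoters of 5 members are shown because they carry both motifs and because these genes span the results that follow: the member with the lowest p for OSM against PBS, a cytokinesis gene, the kinase that starts mitosis, a chromosome protein and the steadiest checkpoint gene. Each run is 170 bases before the start and 30 bases from it on, in GRCm39, read 5′ to 3′ on the gene's strand, and capitals mark TTTGAA or its complement TTCAAA and CCAAT or its complement ATTGG. In Ube2c, a CCAAT on each strand overlap in a single run of capitals.
Ube2c, chr2:164611648-164611847, plus strand: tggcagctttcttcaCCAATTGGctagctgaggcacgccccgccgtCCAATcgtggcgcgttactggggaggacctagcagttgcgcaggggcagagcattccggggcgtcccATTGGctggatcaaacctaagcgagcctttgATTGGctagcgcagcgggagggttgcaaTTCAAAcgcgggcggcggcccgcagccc
Racgap1, chr15:99549508-99549707, minus strand: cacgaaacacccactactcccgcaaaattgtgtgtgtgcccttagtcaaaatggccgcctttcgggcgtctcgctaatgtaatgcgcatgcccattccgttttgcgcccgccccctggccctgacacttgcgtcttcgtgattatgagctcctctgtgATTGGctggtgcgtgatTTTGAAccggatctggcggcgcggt
Cdk1, chr10:69188739-69188938, minus strand: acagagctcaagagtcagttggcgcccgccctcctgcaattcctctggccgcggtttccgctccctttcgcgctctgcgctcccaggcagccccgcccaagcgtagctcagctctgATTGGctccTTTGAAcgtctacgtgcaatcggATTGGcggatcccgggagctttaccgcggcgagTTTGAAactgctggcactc
Top2a, chr11:98915012-98915211, minus strand: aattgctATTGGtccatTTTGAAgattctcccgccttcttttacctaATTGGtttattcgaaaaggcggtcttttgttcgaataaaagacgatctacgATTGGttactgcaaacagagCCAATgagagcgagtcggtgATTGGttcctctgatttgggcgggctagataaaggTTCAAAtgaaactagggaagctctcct
Bub3, chr7:131161912-131162111, plus strand: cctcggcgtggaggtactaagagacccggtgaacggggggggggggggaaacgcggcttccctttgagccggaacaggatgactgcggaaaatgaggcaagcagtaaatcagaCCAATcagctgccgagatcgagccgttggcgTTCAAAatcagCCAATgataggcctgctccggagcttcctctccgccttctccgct

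All 48 genes were transcribed in the sorted cells, and together they took 0.0928% to 0.231% of the normalized counts of a mouse. Per kilobase of canonical transcript, Pttg1, which encodes securin, the guard of separase, was highest at 61.9 ± 13.5 CPM per kb (SD, 11 mice). Next came Cdc20, the activator of the anaphase-promoting complex, at 36.4 ± 12.9, Birc5 (survivin) at 34.9 ± 12.5, Cenpa, the histone H3 variant of centromeres, at 32.5 ± 11.2, Ube2c at 30.8 ± 9.24 and Bub3 at 29.2 ± 2.81 CPM per kb. From Cdc20 down, each of these differed from the next by less than 1 SD. At the low end stood the kinesin Kif18a at 1.34 ± 1.17, the large kinetochore protein Cenpf at 1.43 ± 1.17, Mki67, the gene of the Ki-67 antigen, at 1.51 ± 0.822, and separase (Espl1) at 1.54 ± 1.07 CPM per kb. The ratio of the highest to the lowest mouse differed widely between genes of this list. Bub3 was the steadiest, with a coefficient of variation of 9.62% over 11 mice, and Kif18a the most variable at 87.4%. Espl1 had no read in OSM mouse 1 and 1470 reads in OSM mouse 9, and Kif4 ranged from 7 to 920 reads. The order depends on the length used: per kilobase of all annotated exons, Cdc20 ranked first and Cenpa fell to rank 23 of 48.

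The 48 genes were low or high together in some mice. The summed level of the 48 genes was 928 CPM in OSM mouse 1, 1188 in mouse 2, 1334 in mouse 5, 1358 in mouse 6 and 1585 in mouse 9. In PBS mice it was 1353 to 2312 CPM with a median of 1449. The means were 1279 ± 242 CPM in the OSM group and 1629.7 ± 379 in the PBS group (SD), and the ranges overlapped. OSM mouse 1 had the lowest level of all mice for 18 of the 48 genes and lay below the median of the gene for 41. At the other end, PBS mouse 11 had the highest level for 20 genes, and 44 of its 48 values lay above the median. Its litter mate PBS mouse 10 had 34 values above the median and a sum of 1832 CPM. The median gene of the list lay 0.60 below its own mean over mice on the log2 scale in mouse 1 and 0.94 above it in mouse 11, while the median of all tested genes lay within 0.05 of 0 in both.

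**Figure D1:**
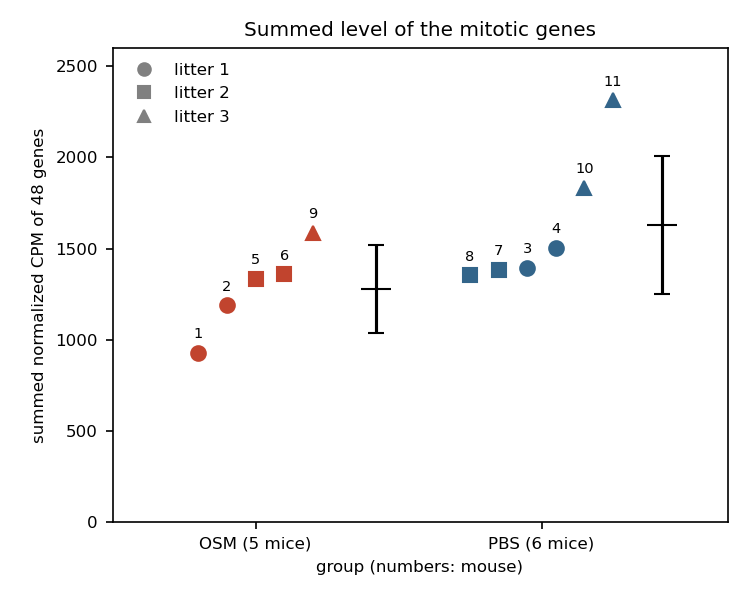
Summed normalized CPM of the 48 genes (y axis, from 0) in each mouse, by group, with mouse numbers and litters by marker shape, and the mean ± SD of each group as a bar. The OSM mice lie between 928 and 1585 CPM and the PBS mice between 1353 and 2312, with mice 10 and 11 of litter 3 at the top.

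Markers of mural cells, the pericytes and smooth muscle cells that wrap vessels and can divide themselves, also differed between mice. Their 10 markers summed to 535 CPM in mouse 1, 542 in mouse 2, 915 in mouse 5, 1088 in mouse 6 and 566 in mouse 9, and to 381 to 2106 in the PBS group with a median of 1078. The highest sum was in PBS mouse 11 and the lowest in PBS mouse 8, which also had the lowest sum of mitotic genes in its group, while PBS mouse 7 had 1714 CPM of mural markers and a low sum of mitotic genes, 1382 CPM. The means were 729 ± 256 CPM after OSM and 1217 ± 614 after PBS (SD). All 10 markers had a log2 fold change below 0, against 51.6% of all genes tested, from -2.10 for Acta2 to -0.27 for Abcc9. Acta2 was at 0.258 CPM in its lowest mouse, and Myh11, at -0.61, had reads in 7 mice. None passed an adjusted p of 0.05 in edgeR. Higd1b alone had an unadjusted p under 0.05, at a log2 fold change of -1.07, against 2.71% of all genes that were lower. Of the 10, 9 had reads in every mouse. The part of mural cells in the values of the mitotic genes was not tested.

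**Figure D2:**
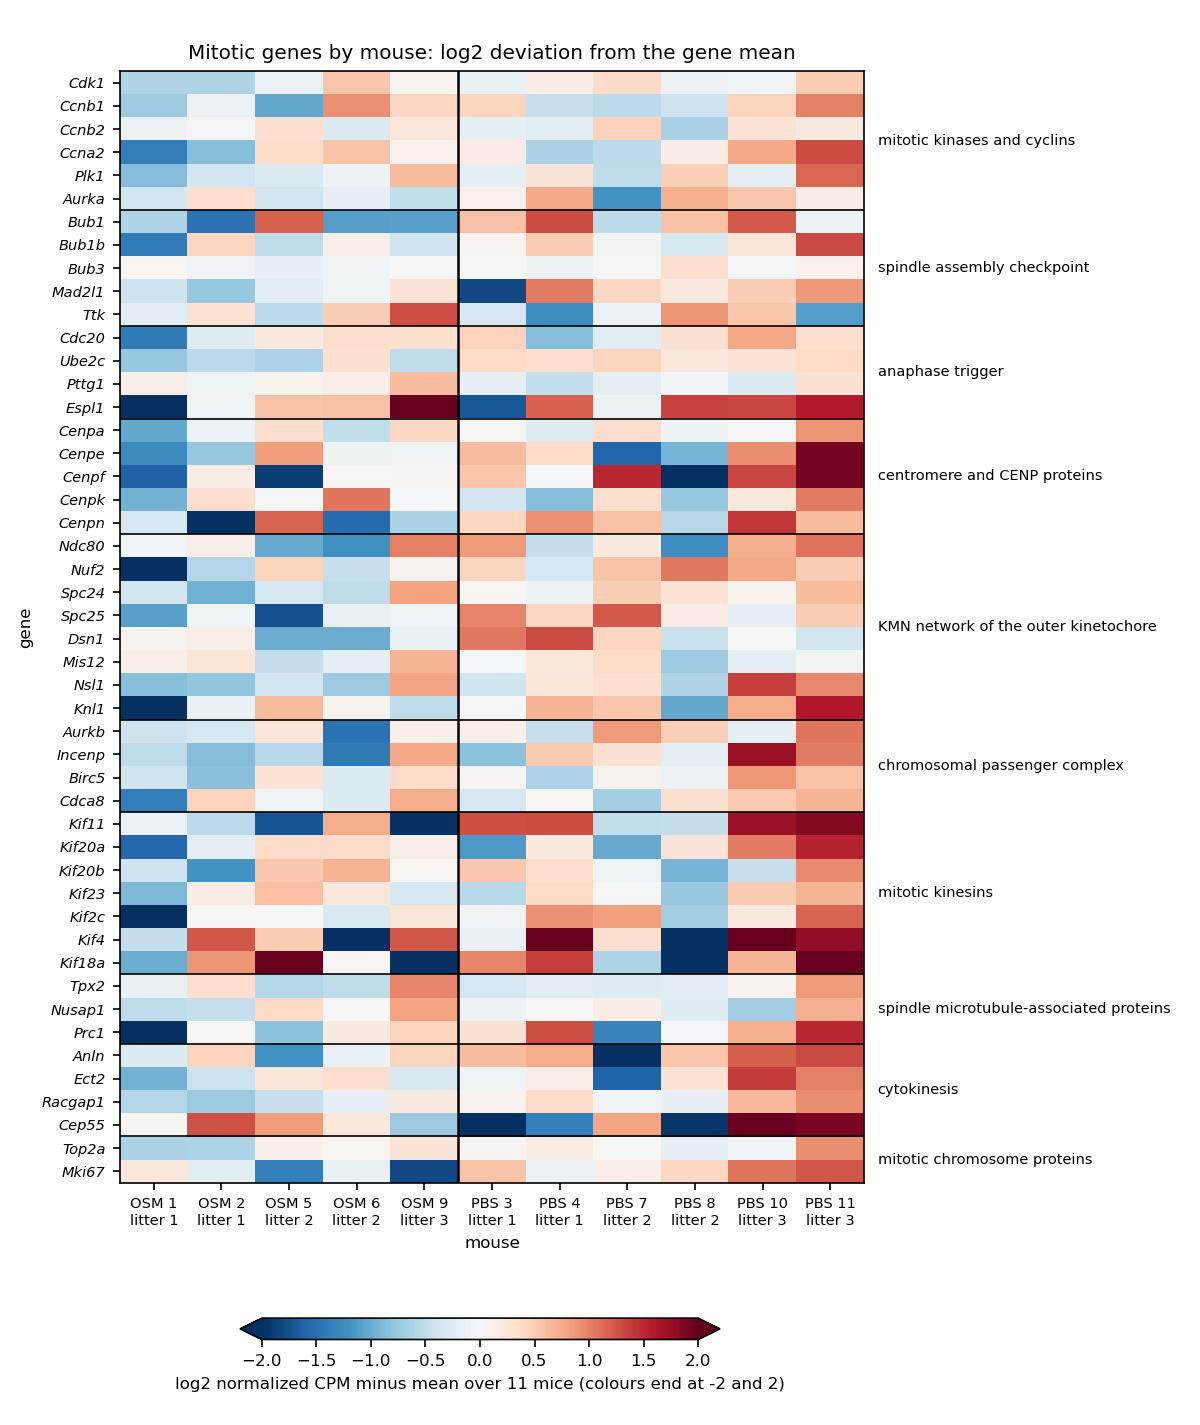
Log2 normalized CPM of each gene minus its mean over 11 mice (colour, red above and blue below, ending at -2 and 2), with mice in columns by group and genes in rows by role. The column of OSM mouse 1 is mostly blue and that of PBS mouse 11 mostly red, and single kinesin and CENP rows change colour within both groups.

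OSM against PBS, with litter in the fit, gave log2 fold changes below 0 for 39 of the 48 genes and above 0 for 9, with a median of -0.36. The median of all 17050 genes tested was -0.014, and 51.6% of them were below 0. None of the 48 passed an adjusted p of 0.05 in edgeR's quasi-likelihood test, where adjusted p-values ran from 0.955 to 1, and none of the 17050 genes did (0% called). An unadjusted p under 0.05 was found for 7 genes that were lower, Ube2c, Racgap1, Spc25, Incenp, Dsn1, Nuf2 and Mki67, against 2.71% of all genes, and for 1 that was higher, Pttg1, against 2.25%. DESeq2's Wald test started from unfiltered counts, and its own filter on mean counts left 22207 genes with an adjusted p. Of these, 168 were called (0.757%), and Ube2c was the 1 member among them. On unfiltered counts, edgeR called 65 of 28940 genes (0.225%) and no member. No gene of the list had every OSM mouse below every PBS mouse, a separation found in 0.223% of all genes. Without OSM mouse 1, 35 of the 48 genes were below 0 and the median was -0.23. Without PBS mouse 4, 34 were and it was -0.28, and without PBS mouse 11, 35 were and it was -0.34.

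**Figure D3:**
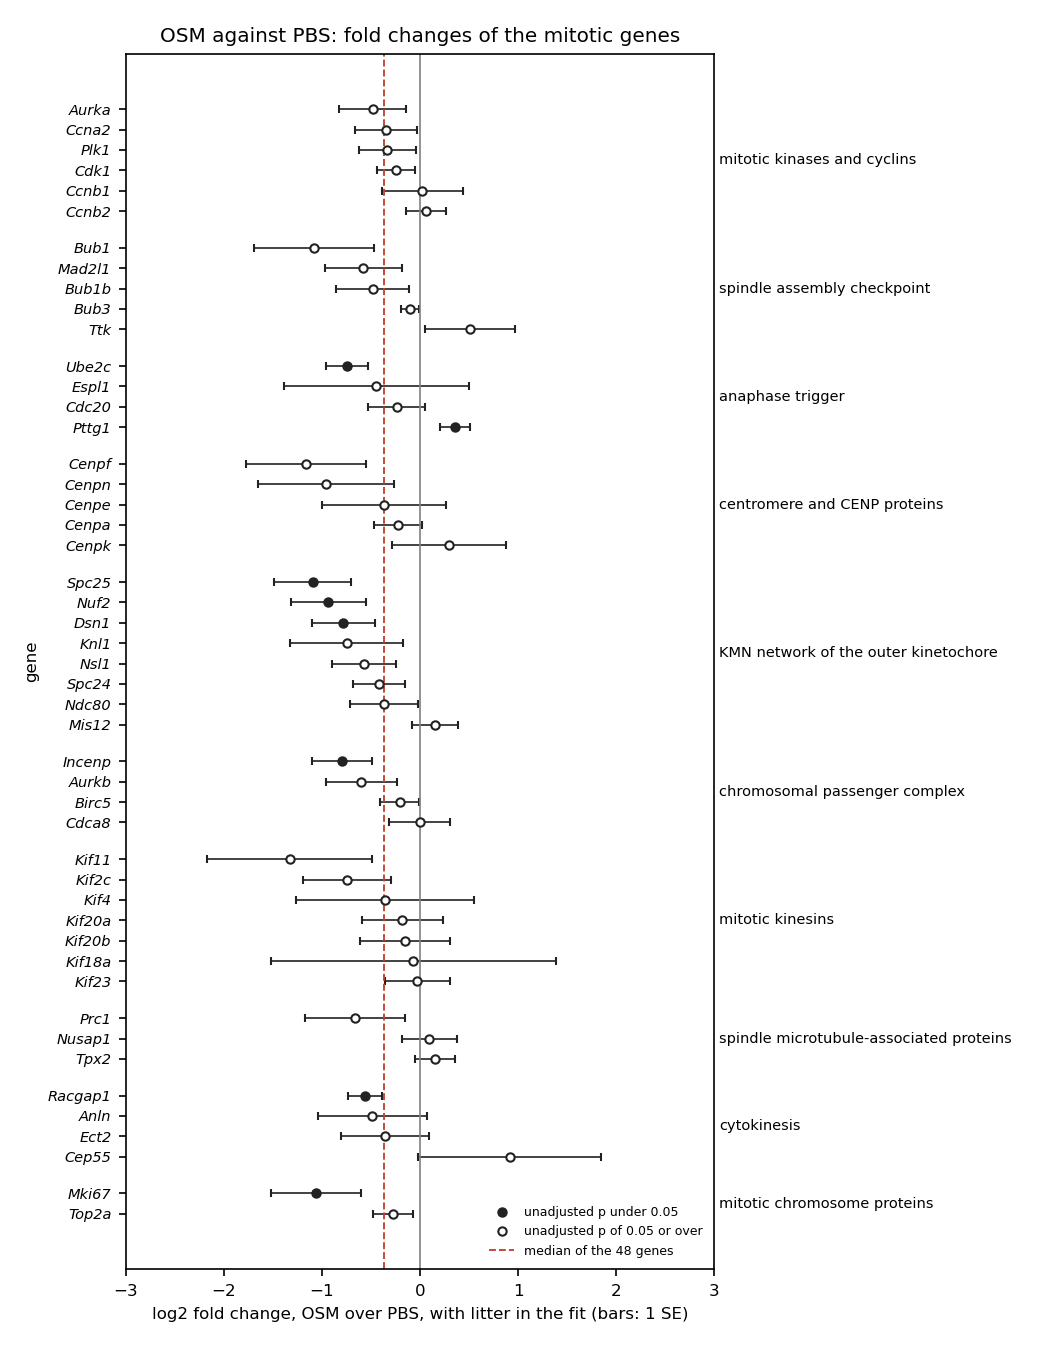
Log2 fold change, OSM over PBS, of each gene (x axis) with 1 standard error as a bar, genes grouped by role and sorted within it; filled points have an unadjusted p under 0.05 and the dashed line is the median of -0.36. Most points lie left of 0, from -1.33 for Kif11 to 0.91 for Cep55, and no gene passed the adjusted threshold.

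Among the kinases and cyclins that drive entry into mitosis, 4 of 6 genes had a fold change below 0 and none passed the test, with a median of -0.29. Ccnb2, a B-type cyclin, had the highest level per length of the 6, at 27.5 ± 6.02 CPM per kb. It stood at 39.1, 41.6, 53.4, 34.5 and 49.7 CPM in OSM mice 1, 2, 5, 6 and 9, the order used for every gene that follows, and at 27.1 to 58.3 with a median of 42.4 in PBS mice. The OSM range lay inside the PBS range, and the log2 fold change was 0.065 ± 0.20 (SE). Cdk1, the kinase that cyclin B activates, was at 50.6, 50.9, 71.1, 114 and 80.01 CPM after OSM and at 70.4 to 109 with a median of 79.7 after PBS. Both OSM mice of litter 1 lay below every PBS mouse, and OSM mouse 6 had the highest level of all 11. Aurka, the Aurora A kinase of spindle poles, had the lowest p of the 6, with 16.1, 26.8, 16.2, 18.7 and 14.8 CPM after OSM, 9.01 to 35.3 with a median of 26.8 after PBS and a log2 fold change of -0.48 ± 0.34 (adjusted p = 1 in edgeR), or -0.19 without PBS mouse 8. Of its 3907 exonic bases, 1510 are shared with neighboring genes, Cstf1 among them, whose reads cannot be told apart there without strand. Plk1 (Polo-like kinase 1) and Ccna2 (cyclin A2) had log2 fold changes of -0.33 ± 0.29 and -0.35 ± 0.32, and Ccnb1 (cyclin B1) 0.023 ± 0.41.

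The spindle assembly checkpoint had 4 of 5 genes below 0 and none that passed the test, with a median of -0.48. Bub3, which carries checkpoint kinases to the kinetochore, was the most abundant of the 48 in CPM, at 215, 202, 189, 201 and 212 CPM after OSM and 197 to 267 with a median of 209.7 after PBS. Its log2 fold change was -0.10 ± 0.094, the narrowest error of the list. Bub1, a kinase that Bub3 recruits, had 7.87, 4.26, 27.2, 5.52 and 5.58 CPM after OSM, so that mouse 5 stood apart from the other 4, and 8.28 to 29.5 with a median of 18.02 after PBS. With the lowest p of this group, its log2 fold change was -1.08 ± 0.61 (adjusted p = 0.970 in edgeR), and -1.72 without mouse 5. Mad2l1, the inhibitor that the checkpoint releases, and Bub1b (BubR1) had log2 fold changes of -0.58 ± 0.40 and -0.48 ± 0.37. Ttk, the MPS1 kinase that starts the checkpoint signal, was at 0.51 ± 0.46.

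The 4 genes of the anaphase trigger held the lowest p of the list and its 1 higher gene with an unadjusted p under 0.05. Ube2c (chr2:164611768-164620742, plus strand, in GRCm39) encodes the ubiquitin-conjugating enzyme that works with the anaphase-promoting complex. Its level was 16.8, 19.5, 18.6, 35.5 and 19.9 CPM after OSM and 32.7 to 38.6 with a median of 36.7 after PBS. Of the 5 OSM mice, 4 lay below every PBS mouse, and mouse 6 lay inside the PBS range. The means were 22.1 ± 7.60 and 36.2 ± 2.14 CPM (SD), and the log2 fold change was -0.75 ± 0.21. The adjusted p of Ube2c was 0.955 in edgeR, whereas DESeq2 gave an adjusted p of 0.0310 at a log2 fold change of -0.75. Within litters 1, 2 and 3 the log2 difference was -1.02, -0.47 and -0.86.

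Pttg1 (chr11:43311071-43321000, minus strand) went the other way. Its level was 50.1, 43.97, 48.5, 50.7 and 70.9 CPM after OSM and 33.02 to 57.01 with a median of 40.97 after PBS. The OSM mouse of litter 3 was the highest of all mice, and PBS mouse 11 the next. A log2 fold change of 0.35 ± 0.15 came with an adjusted p of 0.955 in edgeR. It was the 1 gene of the list that was higher after OSM in all 3 litters, by 0.35, 0.22 and 0.60 on the log2 scale. Of all tested genes, 11.3% were higher in all 3. Cdc20 was at 23.5, 52.99, 70.6, 79.6 and 77.9 CPM after OSM and 34.7 to 106 with a median of 78.2 after PBS, with a log2 fold change of -0.24 ± 0.29. Espl1, the separase that securin holds back, was at 0, 6.03, 9.52, 9.64 and 26.3 CPM after OSM and 1.94 to 19.2 with a median of 15.3 after PBS, too scattered for its log2 fold change of -0.45 ± 0.95 to be told from 0.

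At the centromere, 4 of 5 genes had a fold change below 0 and none passed the test, with a median of -0.37. Cenpa had 22.2, 41.4, 57.5, 31.9 and 60.3 CPM after OSM and 37.8 to 83.4 with a median of 44.9 after PBS, with a log2 fold change of -0.23 ± 0.24. Cenpf, a coiled-coil protein of the outer kinetochore, had the lowest p of the 5. It was at 3.65, 12.4, 2.99, 11.5 and 11.7 CPM after OSM and at 2.78 to 42.7 with a median of 22.6 after PBS, and the log2 fold change was -1.17 ± 0.61 (adjusted p = 0.955 in edgeR). No OSM mouse passed 12.4 CPM, but PBS mouse 8 was the lowest of all, and without PBS mouse 7 the log2 fold change was -0.49. Cenpn and Cenpk, parts of the inner kinetochore, had log2 fold changes of -0.96 ± 0.69 and 0.30 ± 0.58. The motor Cenpe, which carries chromosomes to the spindle equator, had -0.37 ± 0.63.

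The KMN network of the outer kinetochore, which grips microtubules, was represented by 8 genes, with 7 below 0 and a median of -0.66. None passed the adjusted threshold, and 3 of the 8 were among the 7 lower genes with an unadjusted p under 0.05. Spc25 (chr2:69009753-69036574, minus strand), a subunit of the NDC80 complex, was at 7.18, 14.4, 4.49, 13.9 and 14.5 CPM after OSM and at 13.7 to 35.9 with a median of 21.3 after PBS. Only PBS mouse 10, at 13.7 CPM, fell into the OSM range. The log2 fold change was -1.09 ± 0.39 (adjusted p = 0.955 in edgeR). Of its 7031 exonic bases, 3693 are shared with Nostrin, an endothelial gene with a log2 fold change of -0.084 ± 0.12 at 189 ± 22.8 CPM after OSM and 199 ± 30.1 after PBS, and reads in the shared part cannot be assigned without strand.

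Nuf2 (chr1:169325503-169359098, minus strand), which pairs with Ndc80 in the same complex, was at 2.10, 7.83, 16.02, 8.55 and 12.3 CPM after OSM and at 9.26 to 24.4 with a median of 17.2 after PBS. Mouse 1 was the lowest of all, and 3 of the 5 OSM mice lay below every PBS mouse. Its log2 fold change was -0.93 ± 0.39 (adjusted p = 0.955 in edgeR). Dsn1 (chr2:156835180-156849074, minus strand), of the MIS12 complex that anchors the network, had 10.9, 11.3, 5.20, 5.20 and 9.42 CPM after OSM, 7.61 to 25.7 with a median of 12.2 after PBS and a log2 fold change of -0.78 ± 0.32 (adjusted p = 0.955 in edgeR). The PBS mice of litter 1 stood at 21.6 and 25.7 CPM, above all others. In litter 3 the log2 difference was 0.046, slightly higher after OSM.

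Spc24, with the highest level per length of the KMN genes, was at 13.4, 8.87, 13.5, 12.1 and 30.2 CPM after OSM, where mouse 9 stood far above the other 4, and at 16.2 to 26.9 with a median of 19.6 after PBS. The log2 fold change was -0.42 ± 0.27. Ndc80, Nsl1 and Knl1 had log2 fold changes of -0.37 ± 0.35, -0.57 ± 0.33 and -0.75 ± 0.57, and Mis12, above 0, had 0.16 ± 0.24.

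All 4 genes of the chromosomal passenger complex, which corrects faulty attachments and later moves to the cleavage site, had a fold change below 0, with a median of -0.40. Incenp (chr19:9846569-9876924, minus strand), the scaffold that holds the complex together, was at 11.5, 9.02, 11.2, 6.15 and 27.7 CPM after OSM and at 9.30 to 54.5 with a median of 21.9 after PBS. The ranges overlapped, with OSM mice 1, 5 and 9 above the lowest PBS mouse. OSM mouse 9 was above 4 of the 6 PBS mice. It was below both PBS mice of its own litter, which stood at 54.5 and 33.8 CPM. With litter in the fit, the log2 fold change was -0.79 ± 0.30 (adjusted p = 0.955 in edgeR). Birc5, the subunit with the highest level per length, had 24.6, 18.04, 39.01, 26.7 and 42.2 CPM after OSM and 21.00 to 59.3 with a median of 33.9 after PBS, and a log2 fold change of -0.21 ± 0.20. Aurkb, the Aurora B kinase of the complex, was at -0.60 ± 0.36 and Cdca8 (borealin) at -0.0048 ± 0.32.

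The 7 mitotic kinesins, the motors that separate, slide and shorten spindle microtubules, were all below 0 by the fit. Their median was -0.18, and none passed the test. Within litters 1 and 3 all 7 were lower after OSM, but in litter 2 only 2 were, with a median log2 difference of 0.75. Kif23, a motor of the central spindle, had the highest level per length, with 24.4, 50.3, 68.9, 52.8 and 35.8 CPM after OSM, 26.6 to 72.2 with a median of 52.1 after PBS and a log2 fold change of -0.028 ± 0.33. Kif2c, which removes tubulin from microtubule ends, had the lowest p of the 7. It was at 3.88, 18.9, 19.1, 15.4 and 22.7 CPM after OSM and at 11.8 to 42.9 with a median of 27.8 after PBS, with a log2 fold change of -0.75 ± 0.45 (adjusted p = 0.984 in edgeR), or -0.47 without OSM mouse 1.

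Kif11, the motor that pushes spindle poles apart, had the lowest fold change of the 48, -1.33 ± 0.84 on the log2 scale. It was -2.18 without OSM mouse 6 and -0.57 without OSM mouse 9, where Spc25 was the lowest at -1.39. It was at 11.5, 8.67, 3.74, 20.98 and 1.02 CPM after OSM and at 8.86 to 44.9 with a median of 30.7 after PBS. Litters 1, 2 and 3 differed by -1.62, -0.0060 and -5.32, so that litter 2 showed almost no difference and litter 3, with 57 reads in OSM mouse 9, a large one. Kif18a, which limits microtubule length, was at 1.64, 6.21, 14.5, 3.39 and 0.375 CPM after OSM and 0.230 to 14.3 with a median of 5.96 after PBS. Its within-litter differences of -1.23, 3.15 and -4.34 did not share a sign. Kif20a, Kif20b and Kif4 had log2 fold changes of -0.18 ± 0.41, -0.15 ± 0.46 and -0.36 ± 0.91, and 3086 of the 5019 exonic bases of Kif20a are shared with Brd8 and Cdc23.

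Of the 3 microtubule-associated proteins, 1 was below 0 and the median was 0.096. Prc1, which bundles the midzone between separating chromosomes, had both the highest level per length and the lowest p of the 3. It was at 4.88, 24.3, 13.6, 27.2 and 33.2 CPM after OSM and at 9.44 to 68.1 with a median of 34.5 after PBS, and the log2 fold change was -0.66 ± 0.51 (adjusted p = 1 in edgeR). Without OSM mouse 1 it was -0.31 and without PBS mouse 4 -0.38. Tpx2, an activator of Aurora A, and Nusap1 had log2 fold changes of 0.15 ± 0.20 and 0.10 ± 0.28.

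Cytokinesis had 3 of 4 genes below 0 and a median of -0.42, and no gene passed the test. Racgap1 (chr15:99518377-99551998, minus strand), which with Kif23 forms the centralspindlin complex that places the furrow, was both the highest per length and the lowest in p of the 4. Its level was 26.3, 23.6, 28.6, 35.1 and 44.5 CPM after OSM and 35.2 to 74.7 with a median of 46.2 after PBS. OSM mouse 6 lay just under the lowest PBS mouse, its litter mate 8, and OSM mouse 9 lay inside the PBS range but under both PBS mice of its litter. The means were 31.6 ± 8.37 and 50.3 ± 15.5 CPM (SD). The log2 fold change was -0.56 ± 0.17 (adjusted p = 0.955 in edgeR), and within litters it was -0.88, -0.20 and -0.61. Ect2, the exchange factor that Racgap1 brings to the cortex, had a log2 fold change of -0.36 ± 0.45 and Anln (anillin) -0.49 ± 0.56. Cep55, which acts in the final cut, had the highest fitted fold change of the 48, 0.91 ± 0.94, although its mean was 10.3 CPM after OSM and 12.4 after PBS. Without a litter term the log2 fold change was -0.26 and without litter 1 -0.50. It was 0.47 without OSM mouse 2 and 1.66 without OSM mouse 9, and 0.30, 0.56, 1.81 and 0.59 without PBS mice 3, 4, 7 and 8. It was at 7.64, 17.8, 13.2, 8.48 and 4.41 CPM after OSM and 0.873 to 28.98 with a median of 7.80 after PBS, with differences of 2.84, 1.10 and -2.65 in the 3 litters.

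Both chromosome proteins were below 0. Mki67 (chr7:135291513-135318299, minus strand), whose protein coats mitotic chromosomes and is the usual stain for dividing cells, was at 15.5, 11.3, 5.07, 11.9 and 3.74 CPM after OSM and at 12.2 to 31.3 with a median of 18.7 after PBS. OSM mice 2, 5, 6 and 9 were below every PBS mouse and mouse 1 was not. The log2 fold change was -1.06 ± 0.46 (adjusted p = 0.955 in edgeR), and -0.59 without OSM mouse 9. Top2a, the topoisomerase that untangles sister chromatids, was at 49.6, 50.4, 82.8, 79.3 and 92.1 CPM after OSM and at 67.2 to 148 with a median of 79.1 after PBS. Both OSM mice of litter 1 lay under all other mice and PBS mouse 11 above all, and the log2 fold change was -0.28 ± 0.20.

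**Figure D4:**
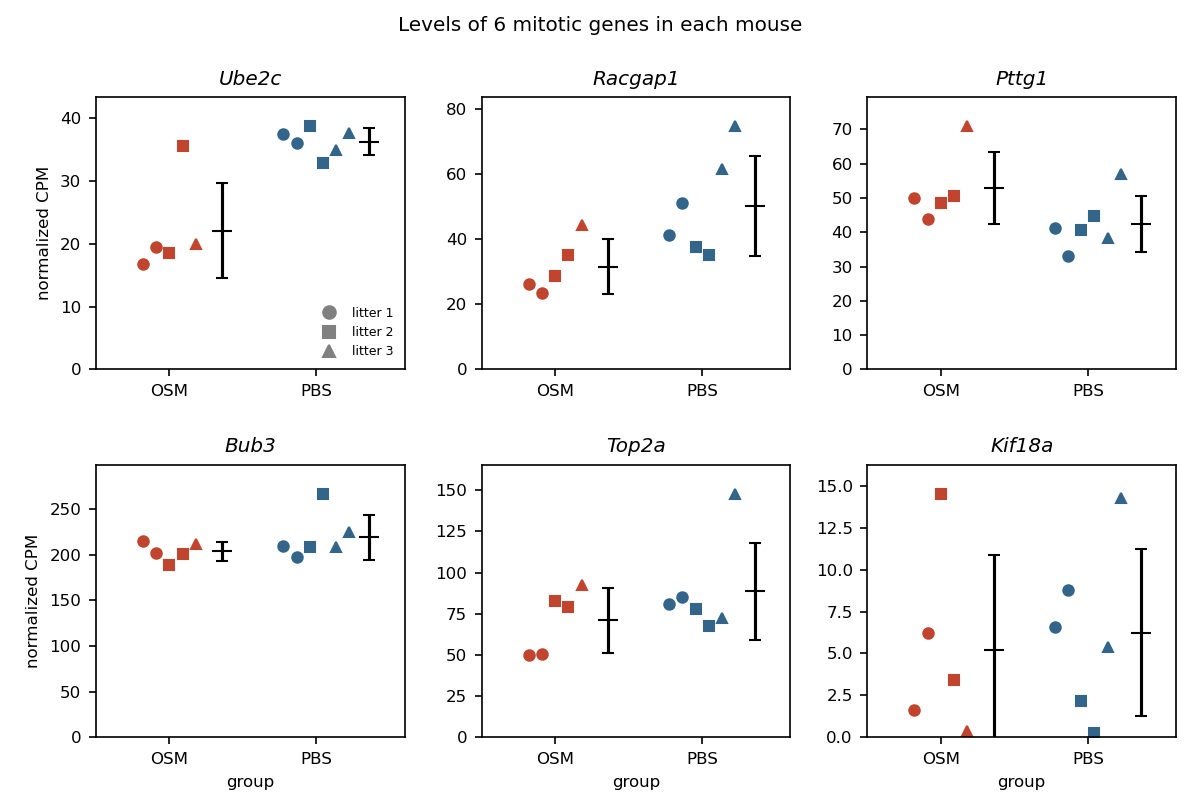
Normalized CPM (y axes, from 0) of 6 genes in each mouse by group, with litters by marker shape and the mean ± SD of each group as a bar. Ube2c is low in 4 of 5 OSM mice, Pttg1 reaches 70.9 CPM in the OSM mouse of litter 3, Bub3 varies little, and Kif18a spreads over both groups.

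The difference between OSM and PBS mice was also read within each litter. In litter 1, 40 of the 48 genes were lower in OSM than in PBS mice and the median log2 difference was -0.62, beside 47.4% of all genes and a median of 0.0079. In litter 2, 25 genes were lower, against 50.9% of all genes, with a median of -0.0034, so that the share lower was near that of all genes. In litter 3, 37 genes were lower, against 53.5%, with a median of -0.43 that rests on 1 OSM mouse. In all 3 litters, 16 genes were lower (33.3%), against 12.8% of all genes: Aurka, Bub1b, Mad2l1, Ube2c, Cenpa, Cenpf, Cenpn, Nuf2, Spc25, Nsl1, Aurkb, Incenp, Kif11, Kif2c, Racgap1 and Mki67. In litter 2, the differences of Bub1b, Aurka and Kif11 were within 0.02 of 0. That of Cenpa was -0.010 in litter 3, with its 1 OSM mouse. Without litter 1, the median fold change of the 48 over both other litters was -0.15, and without litter 2 it was -0.63.

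**Figure D5:**
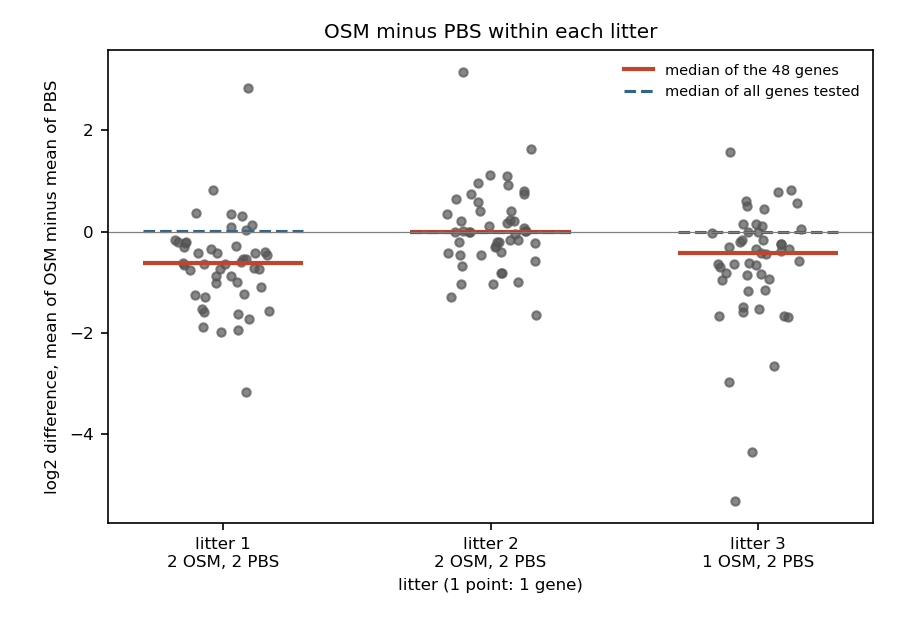
Log2 difference between the mean of OSM and the mean of PBS mice within each litter (y axis), 1 point per gene; the solid line is the median of the 48 genes and the dashed line that of all tested genes. The medians are -0.62, -0.0034 and -0.43 in litters 1, 2 and 3.

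A test of whether the OSM effect differed between litters called none of the 48 genes, with a lowest adjusted p of 0.485 in edgeR, and none of all genes (0%). An unadjusted p under 0.05 was found for 6 of the 48, Kif11, Cenpe, Ccna2, Cep55, Kif18a and Mki67, against 6.42% of all genes. Cenpe had the differences -1.53, 1.63 and -1.48 in litters 1, 2 and 3, and Ccna2 -0.88, 0.65 and -0.94. For Mki67 they were -0.22, -1.04 and -2.96, of 1 sign but unequal size. DESeq2's likelihood ratio test called Cenpe, Kif11 and Kif18a, with 4.69% called of the 14352 genes that had an adjusted p. On unfiltered counts, edgeR called Cenpe and Kif11, with 1.05% of all genes called.

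The litters were also compared in level, whatever the treatment. Of the 48 genes, 44 were higher in litter 3 than in litter 1 by the fit, against 49.7% of all genes, with a median log2 difference of 0.68. The median for litter 2 over litter 1 was 0.19. No member was called between litters by edgeR, with a lowest adjusted p of 0.181 for Incenp, while 3 of 17050 genes were (0.0176%). An unadjusted p under 0.05 was found for 9 of the 48, against 10.3% of all genes: Incenp, Tpx2, Birc5, Nsl1, Racgap1, Ndc80, Ccna2, Dsn1 and Kif20a. In litter 3 over litter 1, Incenp differed by 1.41, Nsl1 by 1.40 and Birc5 by 1.00 on the log2 scale, and Dsn1 by -0.89. DESeq2's likelihood ratio test called 7 members, Ndc80, Dsn1, Nsl1, Incenp, Birc5, Tpx2 and Racgap1, with 6.88% called of the 14352 genes that had an adjusted p. On unfiltered counts, edgeR called Ccna2, Incenp, Kif20a and Tpx2, with 2.16% of all genes called. The study states 3 OIR experiments and the labels name 3 litters, so litter and experiment cannot be told apart.

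Other genes of cell division were read beside the 48 from lists of the same kind. Of 59 other mitotic genes, all tested, 44 had a fold change below 0 and the median was -0.31, and none passed the test. Of all 17050 genes, 51.6% were below 0 and none passed in edgeR, so a count of none called sets no list apart. An unadjusted p under 0.05 was found for Cdca3, at a log2 fold change of -0.59 ± 0.26, and Aspm, a spindle pole protein, at 1.81 ± 0.74. That is 1 lower and 1 higher gene of 59, beside 2.71% and 2.25% of all genes. Trip13, an ATPase that takes checkpoint complexes apart, had the lowest log2 fold change of that list, -2.10 ± 1.04, and Kif14 the highest, 3.08 ± 2.91, at under 1 CPM in the mean of both groups. The 16 genes of DNA replication and the step from G1 to S phase were all below 0, with a median of -0.40 and none called. Mcm3, Mcm5, Ccne2 and Gins2, 4 of the 16, had an unadjusted p under 0.05, against 2.71% of all genes that were lower at that p. Mcm3 and Mcm5, subunits of the replicative helicase, had log2 fold changes of -0.37 ± 0.14 and -0.39 ± 0.15. The lowest was Ccne2 (cyclin E2), at -1.08 ± 0.37, and the highest Mcm6, at -0.021 ± 0.14. The 16 genes of the anaphase-promoting complex, whose subunits are made in all phases, had 11 below 0, a median of -0.038 and none with an unadjusted p under 0.05. Its ends were Ube2s, an enzyme that extends ubiquitin chains, at -0.19 ± 0.16, and the subunit Anapc13 at 0.24 ± 0.19.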

How the data were processed

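RNA of sorted retinal endothelial cells (11 mice, both retinas of a mouse per sample) was reverse transcribed from poly(A) tails with a kit that does not mark strand, amplified and sequenced as single reads. Per the labels and the study's methods, the authors aligned reads to GRCm39 with STAR and counted them with featureCounts on GENCODE genes. The deposited values are raw read counts for 55359 genes. GENCODE vM39 gave symbols and positions for 54749 of these and not for 610. Exonic bases and the parts shared between genes are those of vM39. The authors counted on an earlier GENCODE annotation, in which the shared parts may differ. The count columns of mice 10 and 11 carry other mouse numbers in their headers, and were assigned by the sample records. Members and lists were chosen with earlier results of these data known. Knstrc, of the other mitotic genes, was not matched.

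Genes passing filterByExpr (minimum 10) were compared in R 4.3.3 with edgeR 4.0.16: TMM scaling, a robust quasi-likelihood fit with litter and treatment as terms, and Benjamini-Hochberg adjustment over all 17050 genes at 0.05. Litter and the interaction of treatment with litter were tested in the same way. The standard error was derived from the fold change and the F statistic. Within-litter differences used log2 CPM with a prior count of 2. DESeq2 1.42.0, with independent filtering at 0.05, was an alternative, and the fits were tested on simulated data. Genes were named by this rule: in each role the gene with the highest level per length and that with the lowest p, every called gene, and the ends of the range of levels. Other members are given because each was a member, with those of low p or extreme fold change singled out after their values were seen. Mice of a group are separate animals, and errors come from the spread between them, since reads of amplified cDNA cannot be counted as separate molecules.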

Additional observations from a re-analysis of the deposited data

Results flagged for a closer look

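A mouse that stood far from the others of its group, by Dixon's criterion, was found 6 times in 42 groups of values, made of 19 named genes and 2 summary values in each treatment group. Chance gives about 1 in 20 where values are normally spread and the groups of values are independent. That was not tested for these CPM values, which come from the same mice. In the OSM group, Bub1 stood at 27.2 CPM in mouse 5, Ube2c at 35.5 CPM in mouse 6, and mouse 9 was far above the others in Pttg1 at 70.9 CPM, Spc24 at 30.2 CPM and Incenp at 27.7 CPM. In the PBS group, Top2a stood at 148 CPM in mouse 11. All 6 values lay above those of the other mice of the group. Mouse 9 was the 1 OSM mouse of litter 3 and the most deeply sequenced library, with 56033479 counts, and mouse 11 was of litter 3 as well. The part of litter and depth in these values was not tested.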

How the results depend on the processing

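No member was called for OSM against PBS under any edgeR setting, without any mouse or without any litter (0 to 0 members), and DESeq2's Wald test called 1. The count of members below 0 was 36 of the 45 tested with at least 10 counts in every mouse, 39 to 41 of 48 under the remaining settings, 34 to 41 without a mouse and 32 to 39 without a litter. The median log2 fold change was -0.45 to -0.36 under other settings, -0.47 to -0.23 without a mouse, the latter without OSM mouse 1, and -0.63 to -0.15 without a litter. Of 333 values of single members under other settings, 329 kept their direction and their side of the threshold. The exceptions were Ube2c, which DESeq2 called, Ccnb1, which turned to -0.13 without a litter term and to -0.038 in thinned libraries, and Cep55, which turned to -0.26 without a litter term. Of 528 values without a mouse, 34 in 14 members changed sign, and of 144 without a litter 19. Over both, the log2 fold changes of the 18 members concerned ran as follows: Cdca8 -0.31 to 0.19, Kif20a -0.70 to 0.11, Kif23 -0.54 to 0.25, Kif18a -2.13 to 1.35, Kif20b -0.87 to 0.53, Cdc20 -0.49 to 0.053, Ccnb1 -0.44 to 0.33, Espl1 -0.84 to 0.24, Kif4 -1.26 to 0.15, Ccnb2 -0.063 to 0.25, Anln -0.80 to 0.10, Cenpe -1.54 to 0.61, Mis12 -0.083 to 0.40, Nusap1 -0.10 to 0.40, Ccna2 -0.94 to 0.029, Cep55 -0.50 to 1.81, Bub3 -0.19 to 0.0034 and Cenpk -0.011 to 0.59. Between litters, 4 members were called without a filter on low counts and 7 by DESeq2, and for treatment by litter 2 and 3. The cause of these differences was not tested. Neither count left 0 without any mouse, and treatment by litter could not be fitted without mouse 9. The median within litters ran from -0.88 to -0.39 in litter 1, from -0.12 to 0.034 in litter 2 and from -0.62 to -0.35 in litter 3 without a mouse. No paired analysis was possible because mouse numbers are not shared between groups.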

Other observations

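The regulators that bind the promoters of mitotic genes and the inhibitors that take cells out of the cycle were read from lists of 13 genes each. The DREAM and MuvB regulators had 7 of 13 genes below 0 (median log2 fold change -0.11). None had an unadjusted p under 0.05 in edgeR's test. Foxm1, which with MuvB activates late cell cycle genes, had a log2 fold change of -0.11 ± 0.55. Lin9, a MuvB subunit, had the lowest log2 fold change of that list, -1.15 ± 0.59, and E2f5, a repressive E2F factor, the highest, 0.74 ± 0.39. The genes of cell cycle exit had 7 of 13 below 0 with a median of -0.065, and none had an unadjusted p under 0.05. In both lists the share below 0 was near that of all genes, 51.6%. Cdkn1a, the p21 inhibitor, was at 303 ± 35.7 CPM after OSM and 284 ± 53.1 after PBS, with a log2 fold change of 0.066 ± 0.097. Cdkn1b, the p27 inhibitor, had the highest value, 0.47 ± 0.37, and Cdkn2a the lowest, -2.79 ± 2.04, from means of 0.0529 CPM after OSM and 0.276 after PBS.

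Erythroid and platelet markers summed to 290.5 to 924 CPM in the OSM group and 110.4 to 483 in the PBS group. Of the 5 markers tested, the erythroid genes Hba-a1, Hbb-bs and Alas2 were higher after OSM with an unadjusted p under 0.05 in edgeR. Of all genes, 2.25% were higher at that p. The platelet markers Pf4 and Itga2b did not reach it, and Ppbp, with reads in 1 mouse, was not tested. The part of erythroid and platelet markers in the values of the mitotic genes was not tested.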
